A study of Mus musculus with 2 samples.

Results

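The aquaporin genes of newborn mouse lung are described here across 2 total RNA-seq libraries. The family members were the rows of the deposited gene tables whose identifiers carried the names Aqp1 to Aqp9 and Aqp11, which gave 10 of the 43346 mouse genes in the tables. Each library held RNA from both lungs of 1 pup of strain B6NCrl on postnatal day 0, and the pups are called pup 1 (replicate 1) and pup 3 (replicate 2). No treatment, transgene or mutation is named for them, the sex was not collected, and there is 1 group, so no comparison between conditions was possible. Both pups carry the pregnancy number 1 and the same donor identifier in the labels, so the SD over n = 2 rests on the pup numbers alone and may be technical. RNA over 200 nt was kept, and 10 ng went into each library.

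Aquaporins are membrane channels that pass water, and in some members glycerol or other small solutes, along an osmotic gradient. The lung fills with liquid before birth. At birth that liquid leaves the airspaces as sodium is pumped across the epithelium and water follows, partly through aquaporins of the alveolar epithelium and of the capillaries beneath it. The members classed here as water channels are Aqp1, Aqp2, Aqp4, Aqp5, Aqp6 and Aqp8. The aquaglyceroporins that also pass glycerol are Aqp3, Aqp7 and Aqp9, and Aqp11 belongs to an unorthodox branch that sits in intracellular membranes.

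Each aquaporin folds 2 short loops into the pore, and each loop carries an asparagine-proline-alanine box in the textbook case. The coding stretch of the first box is shown for Aqp1, Aqp5 and Aqp3, the most abundant members here, and for Aqp11 and Aqp7, whose boxes are known to depart from the textbook one. The capitals mark the 9 bases of the box codons, with 12 bases on either side.
Aqp1: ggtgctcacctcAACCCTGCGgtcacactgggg
Aqp5: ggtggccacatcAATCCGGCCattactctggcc
Aqp3: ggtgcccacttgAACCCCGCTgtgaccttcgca
Aqp11: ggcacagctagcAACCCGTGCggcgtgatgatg
Aqp7: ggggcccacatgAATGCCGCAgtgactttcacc
On mm10 the Aqp1 stretch lies at chr6:55336704-55336736 on the plus strand, the Aqp5 stretch at chr15:99591464-99591496 on the plus strand and the Aqp11 stretch at chr7:97737673-97737705 on the minus strand, each within 1 coding exon. The Aqp3 and Aqp7 stretches cross an exon junction. Over whole coding sequences the highest identity between members was 69.2%, between Aqp2 and Aqp5, and Aqp6 was 64.7% identical to each of these. No stretch of 31 bases was shared between any of the members, and the exons of Aqp1, Aqp2, Aqp5, Aqp6 and Aqp8 shared none with any other annotated gene. The share of such stretches found in other genes was 6.23% for Aqp7, 1.37% for Aqp11 and under 1% for Aqp3, Aqp4 and Aqp9. The stretches came from the transcripts of annotation M21, while the deposited levels rest on M4. Aqp11 had 9435 stretches, though its 1 quantified transcript is 1322 bases long. The shares therefore do not measure how many reads were ambiguous.

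Newborn lung held mainly the RNA of Aqp1 and Aqp5. Levels are in TPM, a transcript abundance corrected for transcript length and library size, and a gene was called detected at TPM 1 or more in both pups. By that rule 5 of 10 aquaporins were detected (50%), against 12942 of 21474 protein-coding genes (60.3%). Summed over the 10 members, the level was 1046 TPM in pup 1 and 921 TPM in pup 3. Aqp1 and Aqp5 together held 98.6% of that sum in pup 1 and 97.6% in pup 3. The members classed as water channels held 98.8% and 98.1%, the 3 aquaglyceroporins 0.799% and 1.52%, and Aqp11 0.380% and 0.407% (pup 1 and pup 3 in each case).

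**Figure D1:**
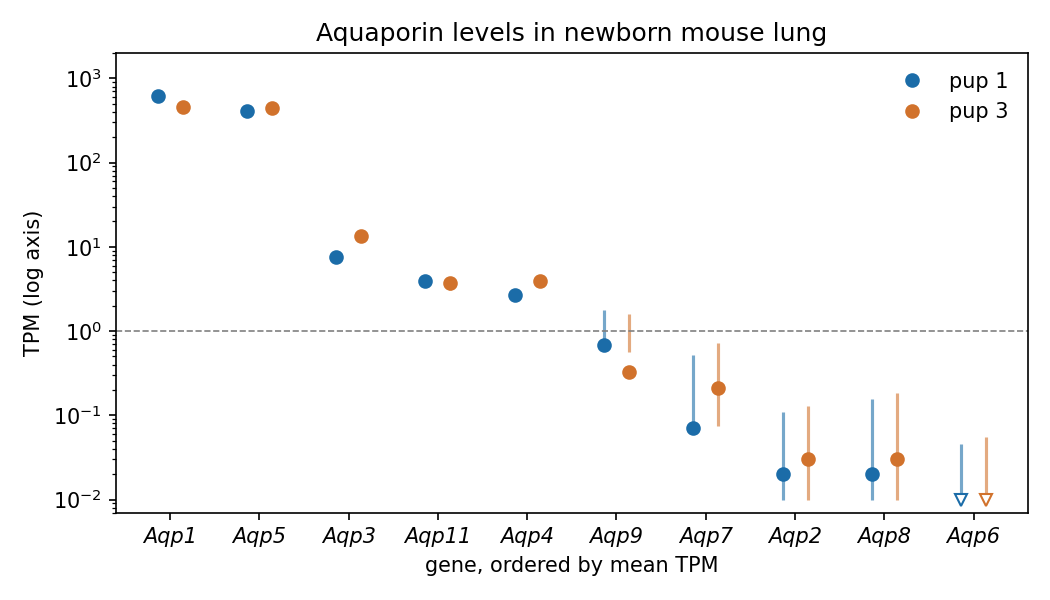
Level of each aquaporin gene (TPM, log axis) in pup 1 and pup 3, in order of mean level. Vertical lines are the deposited 95% credibility intervals, open triangles mark a listed value of 0 and the dashed line marks TPM 1. Aqp1 and Aqp5 lie between 405.62 and 625.38 TPM, and the next gene, Aqp3, at 7.60 and 13.5 TPM.

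Aqp1 is the water channel of capillary endothelium, red cells and the pleural mesothelium. It had 625.38 TPM in pup 1, from 51016 expected counts, and 454.87 TPM in pup 3, from 31573. The mean of 540 ± 121 TPM (SD, n = 2) ranked 198th among protein-coding genes, above 99.1% of them. The deposited 95% interval of its TPM was 609 to 620 in pup 1 and 440 to 450 in pup 3. These intervals surround the posterior mean estimate and need not hold the listed TPM, but those of the 2 pups did not overlap. Each covers the error of estimation within 1 library, and the share of all genes without overlap was not computed. A related interval, that of the count ratio between the pups, left out 1 for 46.1% of all genes tested. Aqp1 (ENSMUSG00000004655) lies on chromosome 6 at 55336432 to 55348555, plus strand, and has 1 transcript in the tables.

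Aqp5 is the water channel of the apical membrane of alveolar type 1 cells, the thin cells of gas exchange, and of secretory gland cells. It had 405.62 TPM in pup 1 (19005 expected counts) and 443.97 TPM in pup 3 (17700). Aqp5 (ENSMUSG00000044217) lies on chromosome 15 at 99590782 to 99594829, plus strand. Its mean was 425 ± 27.1 TPM (SD, n = 2), rank 272 among protein-coding genes. Aqp1 stood above Aqp5 in both pups, by 1.54-fold in pup 1 and by 1.02-fold in pup 3. In pup 3 their deposited intervals overlapped (440 to 450 TPM for Aqp1 and 428 to 441 TPM for Aqp5). The log2 ratio of the mean TPMs, 0.35, was smaller than the SD of the log2 gaps of the 2 pups, 0.42. Aqp1 made up 59.8% of the family sum in pup 1 and 49.4% in pup 3, and Aqp5 38.8% and 48.2%.

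Aqp4 is the water channel of astrocyte endfeet in brain and of the basolateral membrane of airway epithelium. It had 2.69 TPM in pup 1 (432 expected counts) and 3.98 TPM in pup 3 (544), a mean of 3.34 ± 0.912 TPM (SD, n = 2). The intervals were 2.40 to 2.90 TPM in pup 1 and 3.57 to 4.23 TPM in pup 3. Pup 3 was the higher of the pups, and the intervals did not overlap, with no share over all genes to set beside this. Aqp4 lies on chromosome 18 at 15389496 to 15410982, minus strand. An antisense gene, AC133525.2, overlaps Aqp4, and its reads cannot be told from those of Aqp4 if counting ignored strand.

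The 3 other members classed as water channels were at or near 0. Aqp2, the vasopressin-regulated channel of the kidney collecting duct, had 1 expected count in each pup, 0.02 TPM in pup 1 and 0.03 TPM in pup 3. Aqp8, known from liver, pancreas and colon and from inner mitochondrial membranes, likewise had 1 count in each pup, and lies on chromosome 7 at 123462291 to 123468004, plus strand. Aqp6, an intracellular channel of kidney intercalated cells that also passes anions, had 0 counts in both. A count of 0 allows a level of up to 0.0474 TPM for Aqp6 in pup 1 and 0.0557 TPM in pup 3 (3 counts in that library). Of 4 kidney tubule markers none was detected, and Umod and Pax2 had 0 counts in both pups.

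Aqp3 was the most abundant aquaglyceroporin. It is known from the basolateral membrane of airway basal cells and of skin keratinocytes. Its level was 7.60 TPM in pup 1 (335 expected counts, interval 6.38 to 8.99) and 13.5 TPM in pup 3 (505 counts, interval 11.7 to 15.2). The mean was 10.6 ± 4.17 TPM (SD, n = 2). The intervals did not overlap, with no share over all genes to set beside this, and pup 3 was the higher. Aqp3 lies on chromosome 4 at 41092722 to 41098183, minus strand.

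Aqp9 and Aqp7 were under TPM 1 in both pups. Aqp9 passes glycerol and urea and is known from liver and from leukocytes. It had 0.69 TPM in pup 1 (39 expected counts) and 0.33 TPM in pup 3 (23 counts). The posterior mean TPM of Aqp9 was 1.25 in pup 1 and 1.05 in pup 3, so its place above or below the floor depended on the estimate used. The effective length behind Aqp9 was 1757 bases in pup 1 and 2547 bases in pup 3, because different transcripts were given the reads. Aqp7, the glycerol exit channel of adipocytes, had 0.07 TPM from 4 counts in pup 1 and 0.21 TPM from 3 counts in pup 3. Aqp9 lies on chromosome 9 at 71110659 to 71168682, minus strand. Gm47268 and Gm32511 overlap Aqp9 on the opposite strand and were not analysed here.

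Aqp11, an intracellular aquaporin whose loss in mice gives cysts in the kidney, had 3.98 TPM in pup 1 (157 expected counts) and 3.75 TPM in pup 3 (126). Its mean was 3.87 ± 0.163 TPM (SD, n = 2), and it lies on chromosome 7 at 97724006 to 97738289, minus strand. In the order of levels Aqp1, Aqp5, Aqp3, Aqp11, Aqp4, Aqp9, Aqp7, Aqp2, Aqp8 and Aqp6, the neighbours Aqp11 and Aqp4 did not differ beyond the spread of the pups, since Aqp4 was the higher in pup 3. Aqp2 and Aqp8 were equal. The listed TPM of the other neighbours kept its order in both pups, but the deposited intervals overlapped for Aqp1 and Aqp5 and for Aqp9 and Aqp7 in pup 3, and in both pups among Aqp7, Aqp2, Aqp8 and Aqp6, which had 0 to 4 counts. The widest gap was between Aqp5 and Aqp3, 53.4-fold in pup 1 and 32.9-fold in pup 3. Of the family genes outside the set, Mip (lens) had 0.03 TPM in pup 1 and 0 in pup 3, and Aqp12 (pancreas) likewise.

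Aqp2, Aqp5 and Aqp6 stand in a row on the plus strand of chromosome 15 within 26.4 kb. The gap from Aqp2 to Aqp5 is 6.235 kb and that from Aqp5 to Aqp6 is 6.571 kb. Aqp5 had 405.62 TPM in pup 1 and 443.97 TPM in pup 3, while Aqp2 had 0.02 and 0.03 TPM and Aqp6 was listed at 0 in both. The next genes outward were the pseudogene Gm5808, at 0.12 TPM in pup 1 and 0.14 TPM in pup 3, and Racgap1, at 6.58 and 9.55 TPM. Aqp7 and Aqp3 are also near each other, 44.6 kb apart on the minus strand of chromosome 4.

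**Figure D2:**
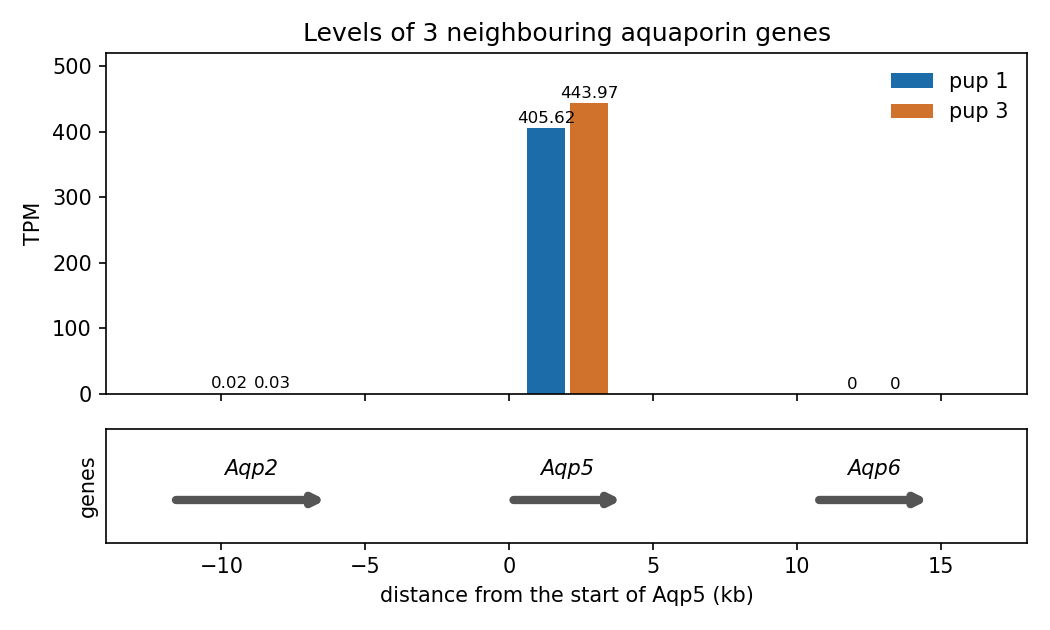
Level (TPM) of Aqp2, Aqp5 and Aqp6 in pup 1 and pup 3, above a map of the genes drawn to scale as distance from the start of Aqp5 (kb), arrows in the direction of transcription. Aqp5 stands at 405.62 and 443.97 TPM and its neighbours at 0.03 TPM or less.

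The promoters of these 3 neighbours and of Aqp1 are printed because the genes differ so widely in level. Each window runs from 250 bases before to 50 bases after the RefSeq gene start on GRCm38.p6, and every CG is in capitals. The Aqp5 window is chr15:99590778-99591077, that of Aqp2 chr15:99578806-99579105, that of Aqp6 chr15:99600950-99601249 and that of Aqp1 chr6:55336049-55336348, all on the plus strand.
Aqp5: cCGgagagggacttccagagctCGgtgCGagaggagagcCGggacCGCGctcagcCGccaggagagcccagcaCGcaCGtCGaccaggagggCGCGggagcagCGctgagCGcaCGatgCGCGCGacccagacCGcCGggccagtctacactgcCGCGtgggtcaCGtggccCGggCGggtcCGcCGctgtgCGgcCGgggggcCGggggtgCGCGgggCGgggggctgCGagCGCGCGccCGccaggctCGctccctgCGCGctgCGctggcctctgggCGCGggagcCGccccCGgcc
Aqp2: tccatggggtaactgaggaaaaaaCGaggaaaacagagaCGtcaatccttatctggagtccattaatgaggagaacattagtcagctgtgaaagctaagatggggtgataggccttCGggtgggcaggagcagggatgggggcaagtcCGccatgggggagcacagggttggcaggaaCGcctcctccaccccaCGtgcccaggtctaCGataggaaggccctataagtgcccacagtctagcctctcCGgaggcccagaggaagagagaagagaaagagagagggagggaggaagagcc
Aqp6: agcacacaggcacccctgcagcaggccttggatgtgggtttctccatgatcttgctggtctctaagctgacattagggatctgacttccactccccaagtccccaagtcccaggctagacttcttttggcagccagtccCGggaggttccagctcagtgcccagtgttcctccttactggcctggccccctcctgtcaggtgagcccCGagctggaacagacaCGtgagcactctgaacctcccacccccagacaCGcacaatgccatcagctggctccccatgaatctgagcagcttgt
Aqp1: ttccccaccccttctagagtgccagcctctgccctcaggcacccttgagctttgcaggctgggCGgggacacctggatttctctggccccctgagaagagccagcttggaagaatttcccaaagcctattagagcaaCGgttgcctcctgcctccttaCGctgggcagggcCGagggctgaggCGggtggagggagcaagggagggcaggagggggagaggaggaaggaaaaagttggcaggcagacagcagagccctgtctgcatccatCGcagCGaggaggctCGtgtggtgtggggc
The RefSeq starts differ from the GENCODE M21 gene starts, so the windows are not the same kind of region by that annotation. Of the 300 bases, 296 lie inside the M21 gene for Aqp5 and 51 for Aqp2, while the windows of Aqp6 and Aqp1 end before the M21 gene starts. The Aqp5 window held 46 CG pairs, more than 98.4% of the 32851 RefSeq promoter windows of the same length, in which the median was 7. The windows of Aqp2 and Aqp1 held 8 CG pairs each, and that of Aqp6 held 4. A CG reads the same on both strands, and 94.6% of all windows held at least 1. Windows of 9 of the 10 members, 11 in all, were examined, and Aqp4 was left out. Aqp11 had 27 CG pairs and Aqp3 had 21, and the other windows held 0 to 8. The letters TATAAA, sought on both strands, stood in the Aqp3 window alone among these 11, against 13.6% of all windows. Aqp1, the highest of the members in level, had 8 CG pairs. These are letter counts, and no binding or methylation was measured.

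Pup 1 was next set against pup 3. This is 1 library against 1 library, so intervals cover counting error only, reads are not independent molecules, and no p-value is given. Expected counts were scaled by trimmed mean of M values (TMM). Calls needed a 2-fold or larger ratio, 50 or more counts summed over the pups, and an exact binomial 95% interval of the ratio without 1. Of the aquaporins, 6 had enough counts and 0 of these 6 were called, against 220 of 15790 genes tested, or 1.39% (101 higher in pup 1 and 119 higher in pup 3). Spike-in RNAs gave 317 counts in pup 1 and 316 in pup 3. These are few, so a scaling factor from them carries its own counting error, which no value here includes. With spike-in scaling the split was 161 higher in pup 1 and 82 higher in pup 3. Every log2 ratio then moved up by 0.15, and no aquaporin was called. At 1.5-fold, Aqp3 was the 1 member called, against 5.09% of all genes tested. The interval left out 1 for 4 of 6 members (Aqp1, Aqp3, Aqp4 and Aqp5), against 46.1% of all genes tested. The members' median log2 ratio was 0.054, against -0.0023 over all genes tested.

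**Figure D3:**
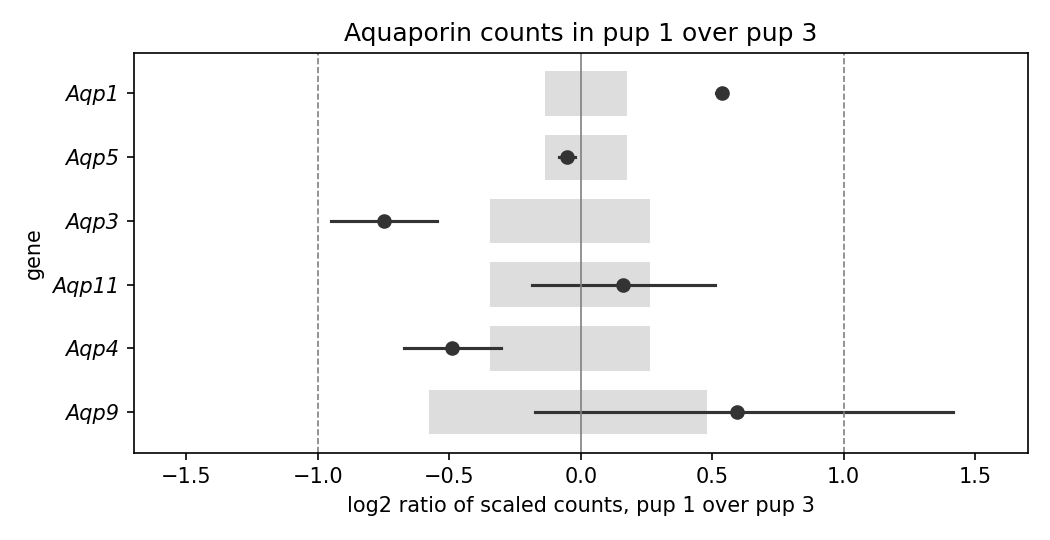
Log2 ratio of scaled counts, pup 1 over pup 3, for the 6 aquaporins with at least 50 counts. Points carry the exact binomial 95% interval, grey bands show the central 68% of genes in the same count class, and dashed lines mark 2-fold. Aqp1 (0.54) and Aqp9 (0.59, with an interval that includes 0) lie right of their bands, Aqp3 (-0.75) and Aqp4 (-0.49) left of theirs, Aqp5 (-0.05, turning to 0.098 with spike-in scaling) within its band, and no point reaches a dashed line.

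Aqp1 was 1.45-fold higher in pup 1 than in pup 3 (95% interval 1.43 to 1.47). That log2 ratio, 0.54, was larger in size than those of 98.7% of the 3501 genes with at least 5000 counts. Aqp5 had a ratio of 0.964 (0.944 to 0.984) under TMM scaling, a log2 ratio of -0.05 that turned to 0.098 with spike-in scaling. Aqp3 was 1.68-fold higher in pup 3 (1.46 to 1.93), a log2 ratio of -0.75 that was larger in size than those of 95.3% of the 4798 genes with 100 to 1000 counts. Aqp4 was 1.40-fold higher in pup 3 (1.23 to 1.60), larger in size than 86.2% of the same genes. For Aqp11 the ratio was 1.12 (0.879 to 1.43) and for Aqp9 1.52 (0.887 to 2.67), and at this depth neither could be told from 1.

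Markers of the cells known to carry Aqp1 had lower ratios than Aqp1 itself. In bulk tissue, fewer cells of a type and less RNA per cell cannot be told apart. Of 8 endothelial markers 0 were called, and their median log2 ratio was -0.03 under TMM scaling and 0.12 with spike-in scaling, with single genes from -0.51 to 0.24. The 3 most abundant were Ramp2 (741.75 TPM in pup 1 and 679.55 TPM in pup 3), Egfl7 (364.79 and 415.74 TPM) and Cldn5 (352.90 and 382.43 TPM). The 6 red cell markers had a median of -0.21 under TMM scaling and -0.057 with spike-in scaling, and 0 were called. Hbb-bs, a globin, had 14378 TPM in pup 1 and 17276 TPM in pup 3, Hba-a1 9840 and 11988 TPM, and globin genes are near copies whose reads may be split. Alas2, which starts heme synthesis in red cells, had 127.64 and 157.54 TPM. The 4 mesothelial markers, led by Msln at 434.90 and 478.53 TPM, Upk3b at 47.57 and 52.01 TPM and Lrrn4 at 7.02 and 8.14 TPM, had a median of -0.10 under TMM scaling and 0.053 with spike-in scaling. The log2 ratio of Aqp1 lay above that of every tested gene of these 3 lists. It was also larger in size than 98.7% of the 3501 genes with at least 5000 counts. A place above a few chosen markers was therefore likely beforehand. The part of these cells in the Aqp1 ratio was not tested.

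The 8 listed genes known to respond to glucocorticoids were higher in pup 1, Errfi1 and Cebpd only slightly. The hormone prepares the lung for birth, and Aqp1 is known as a steroid-induced gene of rat lung. All 8 genes of the list were higher in pup 1 under every scaling used, with a median log2 ratio of 0.76 under TMM scaling. Errfi1 (0.064) and Cebpd (0.099) lay within the central 68% of genes with at least 5000 counts, -0.135 to 0.175. Of the list, 2 of 8 genes were called, against 1.39% of all genes tested. Sgk1, a glucocorticoid-regulated kinase kept in the sodium list, went the other way, with 76.4 TPM in pup 1 and 114.67 TPM in pup 3. Its ratio was 0.692 (0.669 to 0.717), and it was not called. Zbtb16, a transcription factor, had 10.82 TPM in pup 1 and 2.13 TPM in pup 3, a ratio of 5.35 (4.72 to 6.07). Per1, a clock gene, had 25.61 and 14.30 TPM, a ratio of 2.08 (1.94 to 2.22). Tsc22d3, the most abundant of the list, had 334.34 TPM in pup 1 and 209.26 TPM in pup 3, followed by Cebpd at 101.48 and 100 TPM and Errfi1 at 92.92 and 92.13 TPM. The list was chosen with earlier results of these data known, so its counts are a description and no independent support. The part of these genes in the Aqp1 difference was not tested.

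**Figure D4:**
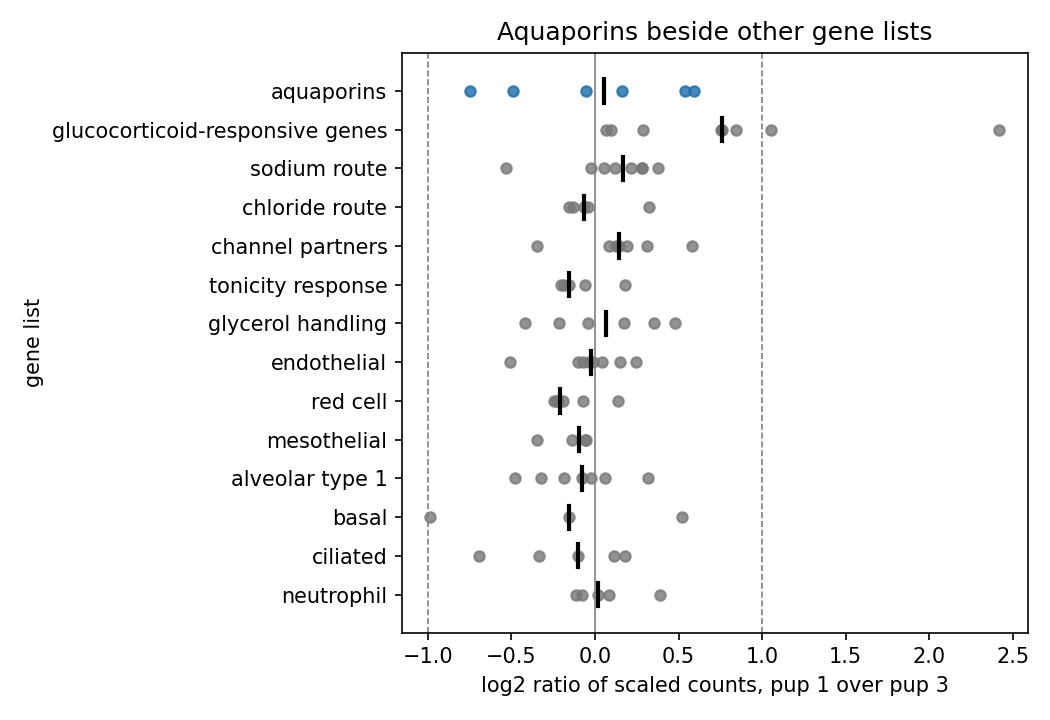
Log2 ratio of scaled counts, pup 1 over pup 3, for each tested gene of the aquaporin family and of 13 other lists. Points are genes, black bars are list medians and dashed lines mark 2-fold. The genes of the glucocorticoid-responsive list all lie right of 0 (median 0.76), while the aquaporins run from -0.75 (Aqp3) to 0.59 (Aqp9). Sgk1, shown in the sodium list, lies at -0.53.

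Markers of alveolar type 1 cells, a known site of Aqp5, were abundant in both pups. Ager had 3328 TPM in pup 1 and 3579 TPM in pup 3, Cav1 954.02 and 1061 TPM, and Rtkn2 181.29 and 150.32 TPM. The 7 markers had a median log2 ratio of -0.08 under TMM scaling and 0.071 with spike-in scaling, and 0 were called. Markers of submucosal glands, another known site of Aqp5, were low. Bpifb1 had 6.39 and 6.53 TPM, and Lpo, Dcpp1 and Tff2 were under TPM 1 in both pups. As a check of the labelled tissue, the surfactant gene Sftpc of alveolar type 2 cells stood at 77317 TPM in pup 1 and 68981 TPM in pup 3.

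Basal cell markers were few. Krt5, Trp63 and Ngfr, the defining genes, were under TPM 1 in both pups. Krt15, a keratin of basal cells, had 24.76 TPM in pup 1 and 51.97 TPM in pup 3, a log2 ratio of -0.98, and Krt14 had 2.04 and 1.56 TPM. Krt15 was thus higher in pup 3, as Aqp3 was, while Krt14 had a ratio of 1.44 (1.04 to 2.00) and Ngfr one of 0.898 (0.568 to 1.42). The median of the 3 tested basal markers, which is the value of Ngfr, was -0.16 under TMM scaling and -0.0046 with spike-in scaling. Of these markers 0 were called. Their part in the Aqp3 ratio was not tested. Among ciliated cell markers, Tppp3 had 614.22 and 599.16 TPM, Tmem212 52.69 and 48.99 TPM and Foxj1 35.07 and 39.67 TPM (pup 1 and pup 3). Their list median was -0.10 under TMM scaling and 0.051 with spike-in scaling, and 0 of 5 were called.

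For Aqp9 the 5 neutrophil markers had a median log2 ratio of 0.02 under TMM scaling, -0.012 with total-count scaling and 0.172 with spike-in scaling. Higher in pup 1 were 3 of 5 under TMM scaling, 2 of 5 with total-count scaling and 5 of 5 with spike-in scaling. They were led by S100a8 at 380.65 TPM in pup 1 and 378.87 TPM in pup 3, S100a9 at 182.36 and 189.75 TPM and Retnlg at 43.96 and 35.35 TPM, and none was called. Liver markers were low, with Apoa1 at 3.28 and 1.95 TPM and Alb at 2.77 and 1.87 TPM. For Aqp7, the adipocyte markers Adipoq and Plin1 were under TPM 1 in both pups, while Fabp4, which other lung cells also express, had 42.87 and 47.78 TPM. The 6 genes of glycerol handling were all detected. Pnpla2, a triglyceride lipase, had 100 and 83.46 TPM, and Lpl, lipoprotein lipase, 36.04 and 49.38 TPM. Lipe, hormone-sensitive lipase, had 17.65 and 16.81 TPM. None of the 6 was called.

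The sodium route that drives fluid clearance was fully detected, 8 of 8 genes. Atp1b1, a sodium pump subunit, had 390.83 TPM in pup 1 and 317.74 TPM in pup 3, and Atp1b3, another subunit of the pump, 181.66 and 195.01 TPM. Their list had a median log2 ratio of 0.17, with 6 of 8 genes higher in pup 1 under TMM scaling and 7 of 8 with spike-in scaling, and 0 were called. Of the chloride route 5 of 6 genes were detected, led by Ano1, a calcium-activated chloride channel, at 60.13 TPM in pup 1 and 67.70 TPM in pup 3, the exchanger Slc4a2 at 24.99 and 29.87 TPM and the cotransporter Slc12a2 at 22.77 and 24.77 TPM. Slc26a4, an anion exchanger, was under TPM 1 in both. The list median was -0.07 under TMM scaling and 0.086 with spike-in scaling, and 0 of 5 tested genes were called.

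Of 8 genes whose proteins are known to traffic or anchor aquaporins in other tissues, the RNA of 7 was detected, against 60.3% of protein-coding genes. Ezr (ezrin) had 253.23 TPM in pup 1 and 243.44 TPM in pup 3, Prkaca, a catalytic subunit of protein kinase A, 83.00 and 82.54 TPM, and Vamp2, a vesicle protein, 44.47 and 39.64 TPM. Avpr2, the vasopressin receptor that acts on Aqp2 in kidney, was under TPM 1 in both, at 0.07 and 0.09 TPM. Of 6 genes of the tonicity response, by which cells adapt to salt, 5 were detected and Slc6a12, a betaine carrier, was under TPM 1. Akr1b3, an aldose reductase, had 94.30 TPM in pup 1 and 87.28 TPM in pup 3, Slc6a6, the taurine carrier, 42.30 and 46.48 TPM, and Hspa4l, a chaperone, 19.07 and 22.87 TPM. No gene of these 2 lists was called.

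Transcript shares are deposited isoform percents, which are model estimates. Aqp1, Aqp4 and Aqp11 had 1 transcript each in the tables. For Aqp5 the transcript Aqp5-202 held 100% in both pups and Aqp5-201 held 0. For Aqp3 the coding transcript Aqp3-201 held 78.0% in pup 1 and 77.7% in pup 3, and the retained-intron transcript Aqp3-202 held 22.0% and 22.3%. Aqp3-202 rested on 16.3 and 25.0 expected counts over a length of 401 bases. Of the 5 detected members, only Aqp3 and Aqp5 had more than 1 transcript and so could have changed their leading one, and neither did.

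The low members gave unlike shares. Aqp9-201 held 63.7% in pup 1 and 0% in pup 3, while Aqp9-202 held 0.11% and 100%. These 2 transcripts are 2643 and 2646 bases long. For Aqp7, Aqp7-202 held 77.3% in pup 1 and 10.4% in pup 3, from 4 counts and 3 counts in all. Aqp7 and Aqp9 were the members with any count whose leading transcript changed, and their shares rest on few reads.

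**Figure D5:**
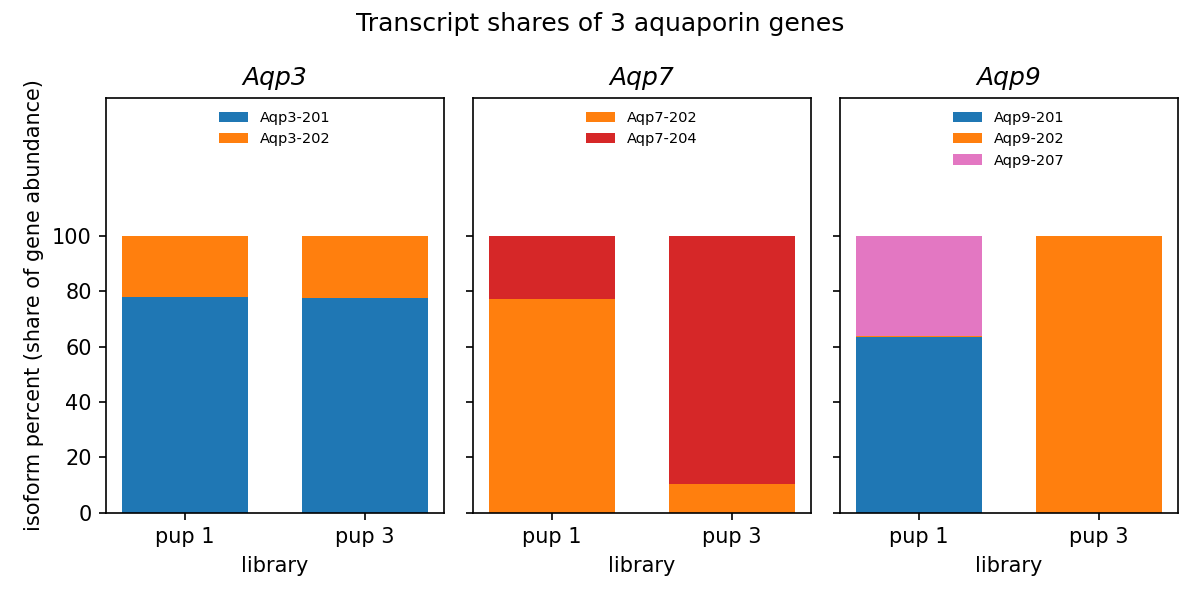
Deposited isoform percent of each transcript of Aqp3, Aqp7 and Aqp9 in pup 1 and pup 3, as stacked bars from 0 to 100. Aqp3 shows like shares in both pups (78.0% and 77.7% for Aqp3-201), while Aqp7 and Aqp9, with 7 and 62 counts over both pups, do not.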

How the data were processed

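Total RNA of lung from 2 newborn pups was analysed from the deposited gene and transcript tables, on assembly mm10 and annotation M4 per the file headers. The authors' expected counts are estimated counts in which shared reads were split. The deposited TPM and FPKM are scaled by effective length, deposited isoform percent gives each transcript's share, and the deposited TPM interval bounds were taken as a signal with no fixed total. Neither the aligner nor the counter is given in the sources used here, nor is the handling of strand.

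Gene-level totals were 42189536 expected counts (pup 1) and 37026165 (pup 3). After rounding, TMM scaling used edgeR 4.0.16 under R 4.3.3, and ratios carry exact conditional binomial 95% intervals. Names and coordinates came from GENCODE M21, and promoters from RefSeq. The size rule was tested on simulated counts that held counting error only, so variation between pups was not covered. All 10 members were named, and of each list up to 3 genes with the highest mean TPM, those called and some under TPM 1. Sgk1 was added as a known glucocorticoid target outside that list. Members and lists were chosen with earlier results of these data known. Alternatives covered scaling, count minimum, fold, TPM floor, posterior mean estimates and leaving out each pup.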

Additional observations from a re-analysis of the deposited data

How the results depend on the processing

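The count of detected members, 5, was 3 at a floor of TPM 5, 6 with posterior mean TPM, and 5 to 5 leaving out either pup. Detected members with the same leading transcript numbered 5, 3 at a floor of TPM 5, and 7 of 9 members with any count. Aqp1, Aqp2, Aqp4 and Aqp11 have 1 transcript and could not differ, and Aqp8 had 1 count a pup. This count was not recomputed without a pup, since it compares the pups. Without either pup the log2 gap between Aqp1 and Aqp5 (0.35) ranged from 0.03 to 0.62. Members called numbered 0, and 1 (Aqp3) at 1.5-fold. The Aqp5 log2 ratio, -0.05, became 0.098 with spike-in scaling, the only member ratio of 30 recomputed values to change sign. Calls over all genes, 220, became 83 on log2(TPM + 1), 709 with no count minimum, 589 at a minimum of 10 counts and 804 at 1.5-fold. No paired analysis was possible because there is 1 group. Members with under 50 counts were too shallow for a ratio.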

Other observations

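Slc26a4, an anion exchanger of the chloride list, had 0 counts in pup 1 and 33 counts in pup 3. It was singled out after its values were seen, and the difference has no replicate check.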
